A study of Homo sapiens with 4 samples.

Results

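The DEAD-box and DEAH-box RNA helicases are described here in prostate cancer cells in which 1 of them, DDX52, was knocked down. The members were all protein-coding genes on the autosomes or the X chromosome whose symbol is DDX or DHX followed by a number, as GENCODE 29 pairs symbols with the Ensembl identifiers of the deposited tables. The rule gave 54 genes, 38 with a DDX symbol and 16 with a DHX symbol, of 60671 identifiers in all. RNA-seq covered 22RV1 cells and PC3 cells, both human prostate carcinoma lines. Each line carried either a control hairpin RNA (shCON) or a hairpin RNA against DDX52 (shDDX52), delivered with a lentiviral pLKO.1 vector under puromycin selection. A single hairpin sequence against DDX52 was used, so an effect of losing DDX52 and an effect of that sequence on other transcripts cannot be told apart. Each of the 4 conditions had 1 library. The differences below thus have no check against replicates, and no test was made.

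RNA helicases use ATP to open short RNA duplexes, to remove proteins from RNA or to hold RNA in place. In the DEAD-box family, 2 recA-like domains close around RNA and ATP, and the family is named after 1 short run of amino acids, motif II, that binds ATP and magnesium. DEAH-box helicases instead move along RNA from its 3′ end, and many of them act in splicing. Ribosome assembly in the nucleolus uses many of these enzymes, and DDX52, the human counterpart of yeast Rok1, acts there on the precursor of the small ribosomal subunit.

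Motif II is given for the target, for its 5 closest relatives by whole protein and for genes that the results turn on. A stretch this short does not rank the genes by relatedness to DDX52. The coding sequences of GENCODE 29 on GRCh38 were translated, and motif II was found once in 53 of the 54 proteins. It read D-E-A-D in 29 members, D-E-A-H in 9, D-E-V-H in 6, and D-E-C-D, D-E-C-H, D-E-I-H and D-E-V-D in 2 each. DDX52 was the single member in which it read D-E-S-D, with serine in place of alanine, at residues 318 to 321 of 599. DHX32 had no motif of these forms. In DDX52 the 12 bases that encode the motif lie in exon 8 of 15 of transcript ENST00000617633.4, within the coding sequence on the minus strand, at chr17:37626068-37626079. The lines below give 42 coding bases, 5′ to 3′, with the 12 bases of motif II in capitals.
DDX52: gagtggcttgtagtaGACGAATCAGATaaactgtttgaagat
DDX59: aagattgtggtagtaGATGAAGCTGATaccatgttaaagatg
DDX4: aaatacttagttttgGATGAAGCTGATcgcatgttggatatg
DDX6: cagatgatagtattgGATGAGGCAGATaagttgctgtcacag
DDX46: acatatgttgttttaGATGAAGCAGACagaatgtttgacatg
DDX27: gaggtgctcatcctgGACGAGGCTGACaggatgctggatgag
DDX5: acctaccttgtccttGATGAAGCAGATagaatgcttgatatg
DHX9: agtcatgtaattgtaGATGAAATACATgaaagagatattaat
DHX36: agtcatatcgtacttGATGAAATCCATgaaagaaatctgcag
DHX57: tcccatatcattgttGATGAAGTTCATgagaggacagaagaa
DHX33: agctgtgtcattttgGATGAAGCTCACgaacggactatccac
The DDX52 stretch shared between 21 and 25 of its 42 bases with those of the DDX genes shown and between 16 and 18 with those of the DHX genes.

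Abundances were deposited as TPM, which corrects for transcript length, so levels may be compared between genes. TPM keeps no sequencing depth, and the precision of a single value is unknown. A change is given as the log2 ratio, log2((TPM shDDX52 + 1)/(TPM shCON + 1)), in which changes of weakly expressed genes come out too small. A gene was compared in a cell line where it reached 1 TPM in either of its libraries. That held for 46 of the 54 members in 22RV1, for 49 in PC3 and for 46 in both. "Past 1.5-fold" is used of this ratio and is a description of these libraries. Where a pair of values is given for a cell line, the first is shCON and the second shDDX52. TPM of a culture cannot tell fewer expressing cells from less RNA in each cell. The libraries differed in composition: ribosomal RNA genes held 1.21% and 0.0872% of TPM in 22RV1, and 0.0923% and 3.13% in PC3, and the part of this in the ratios below was not tested beyond the rescaled values given. KLK2, a prostate kallikrein gene, was 32.6 and 23.1 TPM in the 22RV1 libraries and listed at 0 in both PC3 libraries. CAV1, a gene of PC3 cells, was below 1 TPM in 22RV1 and 162 and 130 TPM in PC3.

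DDX52 itself was a low member of the family, at 4.88 TPM in 22RV1 shCON and 9.20 TPM in PC3 shCON. With shDDX52 it was 1.20 TPM in 22RV1 and 2.07 TPM in PC3, which is 24.6% and 22.5% of the control. The log2 ratio was −1.42 in 22RV1 and −1.73 in PC3, the lowest of the family in both lines. Among all genes compared it stood 163rd from the lowest of 14438 in 22RV1 and 116th of 14262 in PC3. Ordered by TPM within the family of 54, DDX52 stood 45th in 22RV1 shCON and 41st in PC3 shCON, and 46th and 48th with shDDX52. The gene (ENSG00000278053) lies at chr17:37609739-37643464 of GRCh38 on the minus strand. A gene annotated on the opposite strand, AC243585.2, was 2.16 TPM in PC3 shCON and at most 0.20 TPM in the other libraries, and whether the counting used strand is not given in the sources used here.

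Most of the family was within 1.5-fold of its control level, and no relative of DDX52 was past 1.5-fold higher in either cell line. DHX33 in PC3 came nearest, at 0.56, and was past 1.5-fold under some of the alternatives tried. In 22RV1, 2 of 46 members were at least 1.5-fold lower, DDX52 and DHX32, where 8.47% of all genes compared were. In PC3, 3 of 49 were at least 1.5-fold lower, DDX52, DHX36 and DHX57, against 9.84% of all genes. Of members at least 1.5-fold higher there were 0 in 22RV1 and 0 in PC3, where 5.61% and 8.95% of all genes were. All members are nuclear protein-coding genes, and for such genes the shares were smaller. In 22RV1 6.26% of them were lower and 3.81% higher, and in PC3 7.40% were lower and 7.20% higher. DDX52 alone was at least 1.5-fold lower in both lines, 1 of 46 members against 1.18% of the genes compared in both, and 0 members passed 1.5-fold upward in both, against 0.706%. The median log2 ratio of the members was −0.06 in 22RV1, where that of all genes was −0.08. In PC3 it was −0.13 for the members and −0.04 for all genes.

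**Figure D1:**
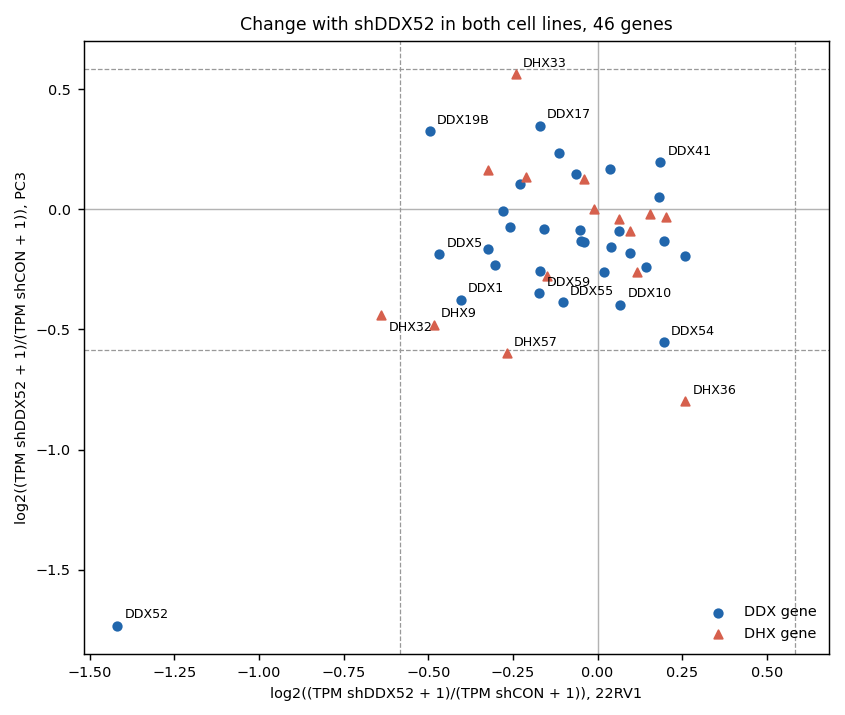
Log2 ratio of TPM with shDDX52 over shCON in 22RV1 (x axis) and PC3 (y axis) for the 46 DDX and DHX genes compared in both lines, 1 point per gene, with dashed lines at 1.5-fold. DDX52 stands apart at −1.42 and −1.73, and the other 45 genes lie between −0.64 and 0.26 in 22RV1 and between −0.80 and 0.56 in PC3.

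The directions of the ratios were set side by side for the members compared in both lines. Below 0 in both were 18 of 46 members, which is 39.1% where 32.5% of all genes were. Above 0 in both were 3 members, or 6.52%, against 18.5% of all genes: DDX3X, DDX39B and DDX41. A further 10 members, or 21.7%, were below 0 in 22RV1 and above 0 in PC3, against 27.4% of all genes, and 15, or 32.6%, the reverse, against 21.4%. Across the 45 members other than DDX52, Spearman's rho between the ratios of the cell lines was −0.05, and across all 12175 genes it was 0.01. These points share their libraries and are not replicates. Rescaling or centring the values changed the sign of 24 of 95 ratios (12 of 46 in 22RV1 and 12 of 49 in PC3), so signs of ratios near 0 carry little.

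Added up, the family was about as abundant in 22RV1 with and without the knockdown, and less abundant in PC3 with it. The sum of the 54 genes was 2783 and 2774 TPM in 22RV1. In PC3 it was 2407 and 2187 TPM. As a share of all TPM this is 0.282% and 0.280% in 22RV1 and 0.243% and 0.222% in PC3. When values were rescaled over nuclear protein-coding genes, the log2 ratio of the sums in PC3 was −0.01 in place of −0.14. DDX52 was lower by 3.68 TPM in 22RV1 and by 7.13 TPM in PC3. In 22RV1, the members that were higher with shDDX52 were so by 168 TPM together, and those that were lower, DDX52 aside, by 173 TPM. In PC3 the sums were 56.7 TPM higher and 270 TPM lower.

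The genes nearest to DDX52 in protein sequence did not reach 1.5-fold in either line. Most genes did not: 89.9% of nuclear protein-coding genes in 22RV1 and 85.4% in PC3 were within it. By global alignment these were DDX59 with 30.6% identity, DDX4 with 29.5%, DDX6 with 29.4%, DDX46 with 29.2% and DDX27 with 29.05%. The next, DDX18, had 28.9%, so the order among them is not sharp and DDX52 has no close paralog in the family. DDX59, a zinc-finger helicase, was 8.80 and 7.70 TPM in 22RV1 and 12.8 and 9.81 TPM in PC3, lower with shDDX52 in both lines. DDX6, which represses translation and takes part in mRNA decay, was 13.6 and 12.5 TPM in 22RV1 and 13.2 and 15.8 TPM in PC3. DDX46, a helicase of early spliceosome assembly, was 14.0 and 13.3 TPM in 22RV1 and 13.2 and 14.7 TPM in PC3. Both were higher in PC3 shDDX52 than in its control, with log2 ratios of 0.24 and 0.15. DDX4, the germ cell helicase Vasa, was listed at 0 in all 4 libraries. Together the 5 genes nearest by global alignment were 93.4 and 84.5 TPM in 22RV1 and 111 and 109 TPM in PC3.

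The other helicases of the small ribosomal subunit, which act in the same assembly path as DDX52, were all within 1.5-fold of their control. So were 89.9% of nuclear protein-coding genes in 22RV1 and 85.4% in PC3. DHX37, which releases the U3 snoRNA from the pre-ribosome, was 23.4 and 24.5 TPM in 22RV1 and 24.9 and 24.2 TPM in PC3. DDX49 was 119 and 131 TPM in 22RV1, but 84.6 and 71.5 TPM in PC3. DDX10 was 13.8 and 14.5 TPM in 22RV1 and 29.8 and 22.4 TPM in PC3. DDX47 was 44.9 and 38.2 TPM in 22RV1 and 45.97 and 49.6 TPM in PC3. On the log2 scale the 4 genes lay between −0.23 and 0.14 in 22RV1, and in PC3 between −0.40 and 0.11. DDX10 (−0.40) and DDX49 (−0.24) were lower in PC3 and DDX47 was higher, and these 3 signs held under each scaling tried.

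Helicases of the large ribosomal subunit were lower with shDDX52 in PC3 in 8 of 8 cases, with a median log2 ratio of −0.15. Of all genes, 53.5% were below 0 and their median was −0.04. The members other than DDX52, these 8 included, were below 0 in 34 of 48 cases, or 70.8%, with a median of −0.11. The family as a whole thus leaned the same way in PC3. Roles were chosen with earlier results of these data known, so the count only describes the group. When values were rescaled over nuclear protein-coding genes, DDX27 and DDX31 were above 0, and DDX24, DDX51 and DDX56 were at −0.0054, −0.01 and −0.03. DDX54, a nucleolar helicase, differed most, at 177 TPM in PC3 shCON and 121 TPM in PC3 shDDX52 (−0.55), while in 22RV1 it was 179 and 205 TPM (0.20). DDX55 was 18.8 and 14.2 TPM in PC3 (−0.39). It overlaps EIF2B1 on the opposite strand, which was 34.45 and 27.05 TPM there, and without strand reads from the overlap cannot be told apart. DDX18 was 24.1 and 19.98 TPM in PC3 (−0.26). DDX24 and DDX56, among the most abundant members, were 100 and 91.4 TPM and 112 and 100 TPM in PC3. In 22RV1, 5 of the 8 were lower and 3 higher, from −0.28 for DDX31 (18.5 and 15.04 TPM) to 0.20 for DDX51 (44.6 and 51.3 TPM) and DDX54. No gene of this group was past 1.5-fold in either line, as held for most genes compared.

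Among the other nucleolar helicases, DHX33 had the highest log2 ratio of the family in PC3. DHX33, a DEAH-box protein linked to rRNA transcription, was 15.4 and 12.9 TPM in 22RV1 (−0.24) and 6.15 and 9.55 TPM in PC3 (0.56). It thus lay just inside 1.5-fold in PC3, and it was past it under 4 of the alternatives tried, at 0.60 to 0.69, and further inside it, at 0.37, when centred on length and GC content. DHX33 overlaps C1QBP on the same strand, a mitochondrial matrix protein gene at 260 to 461 TPM, and reads from the overlap could be assigned to either. DDX21, which couples rRNA transcription to its processing, was 42.7 and 35.5 TPM in 22RV1 and 35.6 and 33.8 TPM in PC3. Its neighbour and paralog DDX50 was 14.7 and 14.2 TPM in 22RV1 and 17.5 and 15.8 TPM in PC3. The mitochondrial helicases were within 1.2-fold of their control by the log2 ratio. DHX30, needed for mitochondrial ribosomes, was 161 and 180 TPM in 22RV1 and 83.8 and 82.7 TPM in PC3. DDX28 was 23.5 and 23.8 TPM in 22RV1 and 7.99 and 6.51 TPM in PC3, there 81.5% of its control TPM. It overlaps DUS2 on the opposite strand, at 32.9 and 34.4 TPM in 22RV1 and 15.95 and 15.9 TPM in PC3. Without strand, reads from that overlap cannot be told apart.

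**Figure D2:**
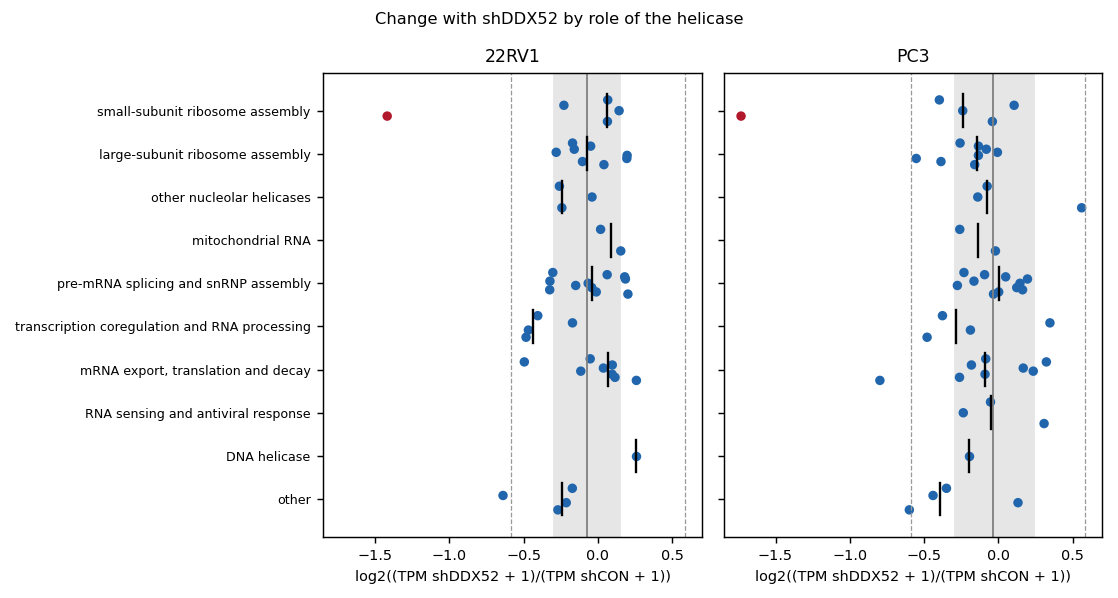
Log2 ratio of TPM with shDDX52 over shCON (x axis) by role of the helicase (rows), 1 point per gene compared, for 22RV1 and PC3, with DDX52 in red. Short black bars are medians of a role, the grey line and band are the median and the middle 50% of all genes compared, and dashed lines mark 1.5-fold.

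Splicing helicases were within 1.5-fold of their control in both lines, as were 89.9% of nuclear protein-coding genes in 22RV1 and 85.4% in PC3. The ratios of these 11 genes lay between −0.32 and 0.20 in 22RV1, and in PC3 between −0.28 and 0.20. DDX41, a helicase of the late spliceosome that is mutated in some myeloid leukaemias, was 102 and 116 TPM in 22RV1 and 114 and 131 TPM in PC3, and with DDX3X it was 1 of 2 members that were higher in both lines under every scaling tried. DDX39B, which loads export factors on spliced mRNA and acts in early spliceosome assembly, was the most abundant of the group at 269 and 305 TPM in 22RV1 and 144 and 149 TPM in PC3, and its sign in PC3 turned under another scaling. The DEAH-box proteins that drive the steps of the splicing cycle, DHX8, DHX15, DHX16 and DHX38, ranged between 18.2 and 63.9 TPM over the 4 libraries. Of these, DHX15 was lower in both lines, at 35.7 and 32.1 TPM in 22RV1 and 22.3 and 18.2 TPM in PC3. DDX42 was 31.5 and 24.96 TPM in 22RV1 and 48.5 and 43.2 TPM in PC3, lower in both. It overlaps CCDC47 on the opposite strand, at 50.9 and 27.0 TPM in 22RV1 and 63.8 and 54.9 TPM in PC3. Without strand, reads from that overlap cannot be told apart. DDX20, a protein of the SMN complex that assembles snRNPs, was the lowest of the group at 4.23 to 6.86 TPM.

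The helicases that act in transcription and general RNA processing were lower in 22RV1 in 4 of 4 cases, with a median log2 ratio of −0.44. For all genes the median was −0.08 and 58.8% were below 0, and of the members other than DDX52 60.0% were. Roles were chosen with earlier results of these data known, so the count only describes the group. Other small groups were uniform in 22RV1 too. Below 0 were 3 of 3 other nucleolar helicases and 4 of 4 members grouped as other, and 2 of 2 mitochondrial helicases were above 0. DHX9, RNA helicase A, was 72.0 and 51.2 TPM in 22RV1 (−0.48) and 64.2 and 45.8 TPM in PC3 (−0.48). DDX1, a part of the tRNA ligase complex, was 46.8 and 35.1 TPM in 22RV1 (−0.40) and 36.1 and 27.6 TPM in PC3 (−0.38). DDX5, a transcriptional coactivator, was 233 and 168 TPM in 22RV1 (−0.47) and 283 and 249 TPM in PC3 (−0.19). These 3 genes were lower in both lines under each scaling tried, but centring on length and GC content brought them to −0.23, −0.23 and −0.28 in 22RV1. DDX17, the close relative of DDX5, did not follow it in PC3, at 26.8 TPM with shCON and 34.3 TPM with shDDX52 (0.35). In 22RV1 DDX17 was 56.2 and 49.8 TPM (−0.17), a sign that turned when ratios were centred on length and GC content. None of DHX9, DDX1, DDX5 and DDX17 was past 1.5-fold, as held for most genes compared.

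In the group that serves mRNA export, translation and decay, DHX36 had the largest ratio. DHX36 unwinds RNA and DNA G-quadruplexes. It was 20.6 TPM in PC3 shCON and 11.4 TPM in PC3 shDDX52, a log2 ratio of −0.80 and the second lowest of the family in PC3. In 22RV1 it was 9.45 and 11.5 TPM, which at 0.26 was the highest log2 ratio of the family there. The 2 shDDX52 libraries thus held nearly the same level, and the control libraries were 9.45 and 20.6 TPM. Whether the response of DHX36 differs between the lines cannot be tested with 1 library each.

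DDX19B, which with DDX19A remodels mRNPs at the nuclear pore, was 29.1 and 20.4 TPM in 22RV1 (−0.49) and 18.7 and 23.6 TPM in PC3 (0.32). Its adjacent copy DDX19A, 11546 bases away on chromosome 16, was 17.9 and 17.2 TPM in 22RV1 and 20.4 and 19.2 TPM in PC3. A gene annotated across both, AC012184.2, was 2.67 and 0.34 TPM in 22RV1 and 2.99 and 0.53 TPM in PC3, so reads of these 3 genes may have been split differently between libraries. DDX39A, a paralog of DDX39B, was the most abundant member in 3 of the 4 libraries, at 272 and 291 TPM in 22RV1 and 376 and 332 TPM in PC3. DDX3X, which promotes translation of mRNAs with structured leaders, was 27.8 and 28.5 TPM in 22RV1 and 23.5 and 26.5 TPM in PC3. DHX29, which helps the scanning ribosome through structured mRNA, stayed between 3.35 and 3.99 TPM, and DHX34, a factor of nonsense-mediated decay, was 37.9 and 41.2 TPM in 22RV1 and 14.4 and 11.8 TPM in PC3.

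DHX32 and DHX57, whose functions are less well known, were the remaining members past 1.5-fold. DHX32 was 5.60 and 3.24 TPM in 22RV1 (−0.64) and 15.1 and 10.8 TPM in PC3 (−0.44), lower in both lines. With ratios centred on the median of all genes it was −0.56 in 22RV1, and with centring on length and GC content −0.46, neither past 1.5-fold. DHX32 overlaps BCCIP on the opposite strand, a gene at 51.0 to 81.0 TPM, and without strand their reads cannot be told apart. DHX57 was 7.06 and 5.69 TPM in 22RV1 (−0.27) and 9.77 and 6.11 TPM in PC3 (−0.60). DHX57 lay just past 1.5-fold in PC3. It was inside it at −0.49 when values were rescaled over nuclear protein-coding genes, at −0.58 without mitochondrial and the 20 highest genes and at −0.56 when centred on the median of all genes. DHX40 was 8.27 and 7.0 TPM in 22RV1 and 11.4 and 12.6 TPM in PC3.

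DDX11, a DNA helicase of sister chromatid cohesion rather than an RNA helicase, was 61.4 and 73.6 TPM in 22RV1 (0.26) and 22.0 and 19.0 TPM in PC3 (−0.20). Its near-identical copies DDX12P and DDX12B were listed at 7.57 and 5.04 TPM in 22RV1 shCON and at 1.59 and 1.48 TPM in PC3 shCON, so its level is uncertain. Of 32 pseudogenes with DDX or DHX names, 3 reached 1 TPM in any library: these 2 and DDX11L2.

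**Figure D3:**
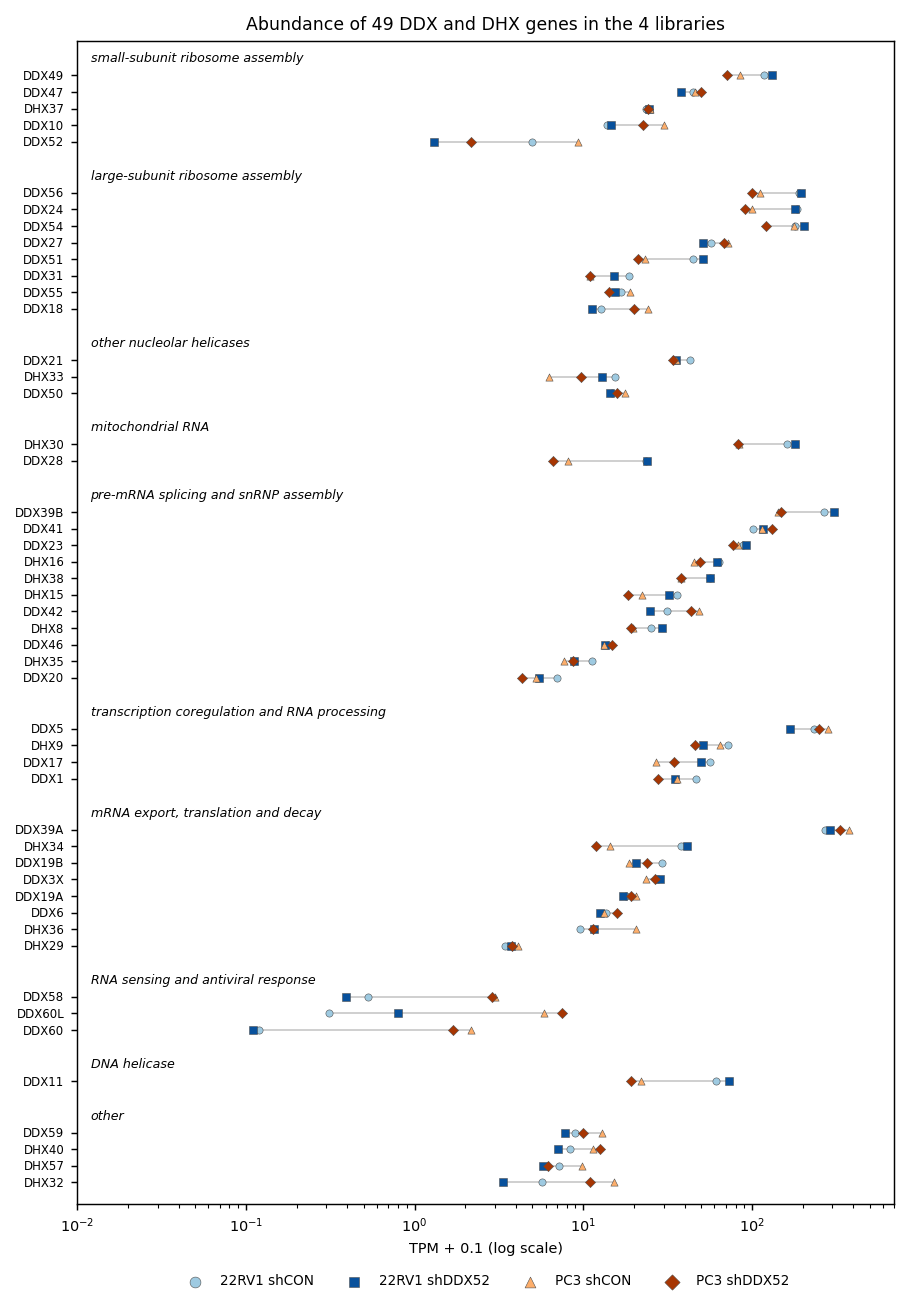
TPM + 0.1 on a log scale (x axis) in the 4 libraries for the 49 DDX and DHX genes that reached 1 TPM in any library, grouped by role and ordered by 22RV1 shCON, with 1 symbol per library and a line over their range. DDX52 spans from 1.20 to 9.20 TPM with both shDDX52 libraries lowest, and the antiviral helicases are separated by cell line.

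Between the control libraries a smaller share of the family than of all genes was past 2-fold. Of 49 members, 6 were at least 2-fold higher in PC3 shCON, or 12.2%, against 19.9% of all genes. At least 2-fold lower were 5, or 10.2%, against 21.3%. Among the 6, DDX58, DDX60 and DDX60L were below 1 TPM in 22RV1 shCON. They were taken in only through PC3 shCON, where they are higher, and the share of all genes was taken with the same filter. Across the 54 members, Spearman's rho of TPM was 0.92 between the control libraries, 0.99 between the 22RV1 libraries and 0.98 between the PC3 libraries. The 10 most abundant members held 64.2% to 67.2% of the family's TPM in each library. They were DDX5, DDX23, DDX24, DDX39A, DDX39B, DDX41, DDX49, DDX54, DDX56 and DHX30 in every library, in changing order.

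Helicases that sense viral RNA or take part in the antiviral response were higher in PC3 for 3 of 4 genes. DDX58, which encodes the cytosolic sensor RIG-I, was 0.43 and 0.29 TPM in 22RV1 and 2.91 and 2.77 TPM in PC3. DDX60 was 0.02 and 0.01 TPM in 22RV1 and 2.05 and 1.59 TPM in PC3. DDX60L, beside it on chromosome 4, was 0.21 and 0.70 TPM in 22RV1 and 5.76 and 7.37 TPM in PC3. All 3 were below 1 TPM in both 22RV1 libraries and above 1 TPM in both PC3 libraries. DHX58, the regulator LGP2 of the same pathway, was at most 0.58 TPM in 22RV1 and at most 0.07 TPM in PC3. With shDDX52 in PC3, DDX58, DDX60 and DDX60L had log2 ratios of −0.05, −0.24 and 0.31. DDX60L overlaps PALLD on the opposite strand, at 5.19 and 2.56 TPM in 22RV1 and 26.1 and 30.2 TPM in PC3. Without strand, reads from that overlap cannot be told apart. IFIH1, the related sensor MDA5 outside the symbol rule, was 0.31 and 0.25 TPM in 22RV1 and 4.58 and 3.67 TPM in PC3.

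In the other direction, PC3 shCON was at least 2-fold below 22RV1 shCON for DDX11, DDX17, DDX28, DHX33 and DHX34, with log2 ratios from −1.45 to −1.04. Higher in PC3 shCON beside the antiviral genes were DDX10, DHX32 and DHX36, at 1.06, 1.28 and 1.04. DDX52 was at 0.79, below that limit. Helicases of the germ line were near 0: DDX4 and DDX43 were listed at 0 in all libraries, DDX25 at 0.23 TPM in PC3 shDDX52 and 0 elsewhere, and DDX53 at 0.32 and 0.25 TPM in 22RV1 and 0 in PC3. These 4 and DHX58 are the 5 members that did not reach 1 TPM in any library.

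**Figure D4:**
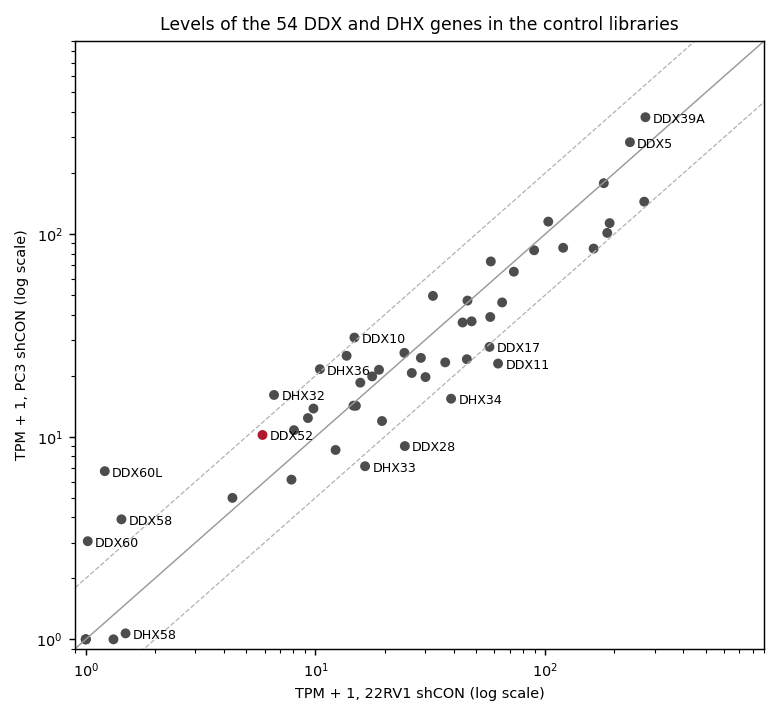
TPM + 1 in 22RV1 shCON (x axis) against PC3 shCON (y axis), both on a log scale, for the 54 genes, with DDX52 in red, the line of equality and dashed lines at 2-fold. DDX58, DDX60 and DDX60L lie above the upper dashed line at the low end, and most abundant members lie between the dashed lines.

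In 22RV1 the ratio of a member moved with the GC content of its longest transcript. Below the member median of 48.8% GC, 22 members had a median log2 ratio of −0.17, and the 23 at or above it had a median of 0.04. Spearman's rho was 0.42 over these 45 members, DDX52 left out, and 0.30 over 14304 genes, so the relation was also present in genes at large. In PC3 rho with GC content was 0.01 over 48 members. Of the low members of 22RV1, DHX9, DDX1, DDX5 and DHX32 had GC contents from 41.9% to 44.1%, and after centring on transcripts alike in length and GC content they were −0.23, −0.23, −0.28 and −0.46. DDX19B, as low at −0.49, had a GC content of 49.6%, above the member median, and was −0.29 after the same centring. The part of GC content in these ratios was otherwise not tested.

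**Figure D5:**
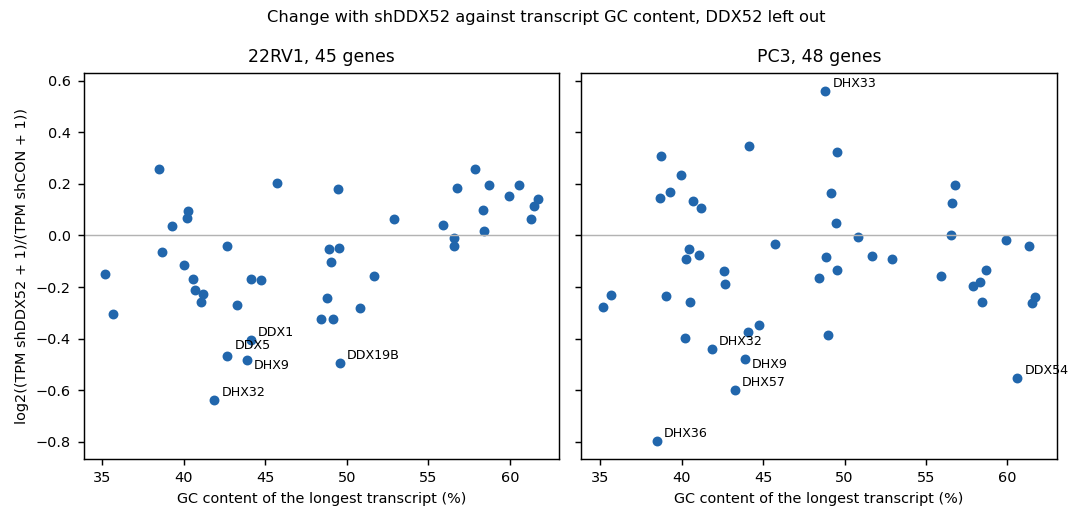
Log2 ratio of TPM with shDDX52 over shCON (y axis) against the GC content in percent of the longest GENCODE 29 transcript (x axis), for 45 genes in 22RV1 and 48 genes in PC3, 1 point per gene, DDX52 left out. In 22RV1 most genes below 48.8% GC lie under 0 and those near 60% lie around or above it, and in PC3 no such slope is seen.

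Of 15 related helicases without a DDX or DHX symbol, 14 were compared in each line. In 22RV1, 1 was at least 1.5-fold higher and 0 were lower, where 5.61% and 8.47% of all genes were. In PC3, 4 were lower and 0 higher, against 9.84% and 8.95%. The 4 were MOV10, a helicase that restricts retroelements, at 24.8 and 12.6 TPM, the intron-binding AQR at 11.2 and 5.66 TPM, the mitochondrial SUPV3L1 at 71.8 and 39.0 TPM, and ASCC3 at 5.99 and 3.22 TPM. In 22RV1 these 4 had log2 ratios of 0.14, 0.06, −0.09 and 0.47. The 1 higher gene in 22RV1 was DQX1 at 4.27 and 7.94 TPM. EIF4A1, the translation initiation helicase and founding member of the DEAD-box group, was 1006 and 949 TPM in 22RV1 and 991 and 776 TPM in PC3, above every member of the symbol rule.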

How the data were processed

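RNA-seq libraries of 22RV1 and PC3 cells with shCON or shDDX52, 4 in all, were prepared with an Illumina TruSeq kit. Reads were mapped by the authors with a web service, and TPM values of 60671 Ensembl genes were deposited. The submitters' processing notes name CASAVA, HISAT2 and hg19. The quantification program, the annotation and the use of strand are not given in the sources used here. DDX52 carries an identifier of GRCh38 annotations in the files, so positions are those of GENCODE 29 on GRCh38 and not of the deposited values. The deposited TPM summed to between 984448 and 990860 in a library.

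The helicase genes, their roles and the lists were chosen with earlier results of these data known. Log2 ratios used a pseudocount of 1 and took in genes that reached 1 TPM in at least 1 of the compared libraries. Calls are ratios past 1.5-fold, or 2-fold between control libraries, without a test. All members could be named, together with 15 helicases outside the rule, by counts, with values for those past 1.5-fold. EIF4A1 and IFIH1 were named after their values were seen, and overlapping genes were named for their position. Roles were written from general knowledge. One marker of the cell lines is not reported here. Proteins were translated from a single GENCODE 29 transcript per gene, in place of the RefSeq proteins that were planned. That transcript was the most principal by its APPRIS label and, among equals, the one with the longest complete coding sequence. The proteins were aligned to DDX52 end to end with BLOSUM62 (gap open 11, extend 1, end gaps free), and identity is the share of the shorter protein. Local alignments used the same matrix and gap costs. Motif II was taken as D-E, then A, C, I, S or V, then D or H, after at least 2 hydrophobic residues of 3, a pattern set after DDX52 was found to lack D-E-A-D. The computation was tested on simulated data. Biopython 1.88, matplotlib 3.10.9, pandas 2.3.3, scipy 1.17.1 and numpy 2.4.6 were used in Python 3.11.15.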

Additional observations from a re-analysis of the deposited data

How the results depend on the processing

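Recomputing 18 values under the alternatives gave 97 values, of which 78 stayed within the limits set, 14 moved past them and 5 changed sign. With no replicates, the limits were 0.1 on the log2 scale for a ratio and 1.5 times for a count or share. DDX52 was the lowest member wherever it was compared. Its log2 ratio was −1.94 in 22RV1 and −2.10 in PC3 with a pseudocount of 0.1, and −1.26 in 22RV1 when centred on transcript length and GC content. The median of the members in 22RV1 was 0.0177 when centred on all genes and 0.00060 when centred on length and GC content, and in PC3 it was −0.0054 with nuclear protein-coding scaling, which moved the median of all genes in PC3 from −0.04 to 0.09. The log2 ratio of the summed TPM in 22RV1 was 0.0124 with that scaling, 0.0527 without mitochondrial and the 20 highest genes and 0.0714 when centred, and in PC3 it was −0.0085 with nuclear protein-coding scaling. Members at least 1.5-fold higher in PC3 numbered 1, DHX33, with a pseudocount of 0.1, with both scalings and with centring. Members at least 1.5-fold lower in 22RV1 numbered 1 with at least 5 TPM, with centring and with length and GC content, and those lower in both lines numbered 0 with at least 5 TPM, because DDX52 is below 5 TPM in 22RV1. Within the limits, members at least 1.5-fold lower in PC3 numbered 2 in place of 3 with both scalings and with centring, each time without DHX57, and those at least 2-fold higher in PC3 shCON numbered between 4 and 6. The share of all genes at least 1.5-fold higher in 22RV1 was 3.58% with at least 5 TPM. No paired analysis was possible because no test was made on these single libraries, and none of them could be left out. TPM gives no depth, so counting error is unknown.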

Other observations

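Adjacent members of the family did not always have like ratios. DDX50 and DDX21, which lie 9281 bases apart on chromosome 10, had log2 ratios of −0.04 and −0.26 in 22RV1 and −0.14 and −0.08 in PC3. DDX60 and DDX60L, 37928 bases apart on chromosome 4, had −0.24 and 0.31 in PC3. Grouped by motif II, the 25 D-E-A-D members compared had a median of −0.10 in 22RV1 and one of −0.13 in PC3, and the 9 D-E-A-H members had −0.04 and 0.0026. In TPM rather than ratio, the largest positive differences in 22RV1 were DDX39B with 36.0 TPM, DDX54 with 26.1 TPM and DDX39A with 19.1 TPM, and in PC3 they were DDX41 with 16.8 TPM, DDX17 with 7.56 TPM and DDX39B with 5.05 TPM.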
